A study of Mus musculus with 27 samples.

Results

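The nuclear genome encodes most subunits of the mitochondrial respiratory chain, and their transcripts were followed here during the first days of reprogramming mouse embryonic fibroblasts (MEFs) toward induced neurons. The members were all protein-coding genes outside the mitochondrial genome whose names begin with Nduf, Uqcr, Atp5, Cox4, Cox5, Cox6, Cox7 or Cox8, together with Sdha, Sdhb, Sdhc, Sdhd and Cyc1. This rule took 95 of the 54532 genes in the table: 44 of complex I, 4 of complex II, 9 of complex III, 20 of complex IV and 18 of complex V. Of the 44 complex I members 7 were core subunits, 29 accessory subunits and 8 assembly factors. Ndufa4 and Ndufa4l2 were counted with complex IV, where the Ndufa4 protein is now placed. A mean of at least 0.5 FPKM (fragments per length of transcript and depth of library) over the libraries was reached by 92 members. The other 3 were Cox7b2 with a mean of 0.0970 FPKM, Cox8c with 0.00393 FPKM and a second locus named Atp5o, listed at 0 in every library.

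Poly(A) RNA was sequenced from WT, Per1-/- and Per2-/- cultures on days 0, 2 and 4, with 3 libraries in each of the 9 groups, 27 in all. All cultures, WT included, were fibroblasts of embryos without head and heart, pooled over embryos, and had received lentiviruses before day 0 that carry neuronal transcription factors under doxycycline control, with the transactivator M2rtTA. Per1-/- and Per2-/- embryos came from germ-line knockout strains, B6.129-Per1tm1Drw/J and B6.129-Per2tm1Drw/J, and the sex of the embryos was not determined. Day 0 cells were taken before reprogramming began, in serum medium. Doxycycline and the change to serum-free medium with insulin, transferrin, progesterone, putrescine and bFGF came together on day 0, so time, induction of the factors and medium cannot be told apart between day 0 and day 2. The labels call the 3 libraries of a group biological replicates and do not say how the cultures or embryo pools behind them differed, so p-values measure the spread between these libraries.

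The libraries held 15815013 to 24264097 assigned fragments, recovered from the deposited values. Per1 transcript lay at 3.23 to 4.96 FPKM in the Per1-/- libraries of day 0 and at 5.44 to 6.33 FPKM in WT. Per2 transcript was not lower in the libraries labelled Per2-/-: it lay at 1.87 to 2.00 FPKM there on day 0 and at 0.817 to 0.957 FPKM in WT, on a gene-level scale that does not show which part of the gene was read. The paper reports western blots that verified the absence of each protein, PER1 or PER2, in MEFs of its knockout. The text says "labelled Per2-/-" throughout because of these RNA values alone. Fibroblast markers dominated, with a summed level of 2361 to 5559 FPKM over 12 genes on any day. In 1 Per1-/- library of day 4 a single short RNA, Gm23935, held 85895 FPKM, which weighs on shares and on TPM there. In bulk RNA, fewer cells of a type and less RNA per cell cannot be told apart.

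Electrons enter the chain at complex I (NADH dehydrogenase) and complex II (succinate dehydrogenase), pass through coenzyme Q to complex III (cytochrome bc1), then through cytochrome c to complex IV (cytochrome c oxidase). The proton gradient they build drives complex V, the ATP synthase. Several complex IV subunits exist as a widely expressed form and a form restricted to heart and skeletal muscle, testis or low oxygen. NRF1, the ETS factor GABP, YY1 and the estrogen-related receptors (ERR), with the PGC-1 coactivators, are the known regulators of these genes, and proliferating fibroblasts are known for high glycolysis while neurons depend on respiration.

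The start sites of Cox8b and Cox6b2, both restricted isoforms that rose, are shown beside those of their widely expressed partners Cox8a and Cox6b1, so that their letters can be compared. That of Cox6a1, the partner of Cox6a2, is shown with them, and Cox6a2 was not matched to a window. Each is a RefSeq window (GRCm38.p6) of 250 bases before to 50 bases after a start site, read 5′ to 3′ on the gene's strand. Capitals mark the letters searched on both strands: GCGCNTGCG (NRF1), CCGGAAG (ETS), CAGCTG (an E-box), TCAAGGTCA (ERR), CTATTTTTA (MEF2), AAGATGGCG (YY1), TATAAA and CCAAT, some of which can overlap.
Cox8b, chr7:140900397-140900696, minus strand: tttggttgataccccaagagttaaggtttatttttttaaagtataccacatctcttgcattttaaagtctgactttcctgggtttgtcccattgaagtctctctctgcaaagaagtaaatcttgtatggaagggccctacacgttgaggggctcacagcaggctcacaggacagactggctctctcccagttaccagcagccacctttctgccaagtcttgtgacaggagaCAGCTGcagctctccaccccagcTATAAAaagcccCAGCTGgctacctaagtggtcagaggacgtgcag
Cox8a, chr19:7217567-7217866, minus strand: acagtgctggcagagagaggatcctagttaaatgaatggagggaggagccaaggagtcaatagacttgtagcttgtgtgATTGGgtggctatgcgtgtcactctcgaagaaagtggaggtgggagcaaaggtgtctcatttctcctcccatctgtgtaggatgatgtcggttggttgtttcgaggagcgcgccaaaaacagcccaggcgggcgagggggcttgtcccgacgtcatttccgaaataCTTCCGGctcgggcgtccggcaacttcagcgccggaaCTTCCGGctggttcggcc
Cox6a1, chr5:115348909-115349208, minus strand: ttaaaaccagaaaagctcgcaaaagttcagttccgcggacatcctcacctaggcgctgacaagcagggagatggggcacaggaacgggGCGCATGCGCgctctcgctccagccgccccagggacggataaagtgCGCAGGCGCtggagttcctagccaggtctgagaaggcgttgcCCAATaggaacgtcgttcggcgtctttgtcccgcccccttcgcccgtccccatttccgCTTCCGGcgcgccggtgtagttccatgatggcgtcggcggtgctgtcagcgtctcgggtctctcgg
Cox6b2, chr7:4753045-4753344, minus strand: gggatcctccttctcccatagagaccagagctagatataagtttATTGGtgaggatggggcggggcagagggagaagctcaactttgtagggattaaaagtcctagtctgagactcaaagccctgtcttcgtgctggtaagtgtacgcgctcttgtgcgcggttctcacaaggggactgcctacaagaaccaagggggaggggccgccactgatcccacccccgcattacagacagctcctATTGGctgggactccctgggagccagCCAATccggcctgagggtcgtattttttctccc
Cox6b1, chr7:30626065-30626364, minus strand: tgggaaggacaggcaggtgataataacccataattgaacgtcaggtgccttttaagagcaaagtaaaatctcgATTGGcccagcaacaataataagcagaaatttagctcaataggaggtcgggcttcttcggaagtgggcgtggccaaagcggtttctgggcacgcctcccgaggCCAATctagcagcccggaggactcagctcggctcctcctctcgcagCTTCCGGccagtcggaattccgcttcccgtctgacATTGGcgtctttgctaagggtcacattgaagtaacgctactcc
The Cox8b window held CAGCTG at 2 places and TATAAA, with 2 CG pairs in all. The Cox8a window held CCGGAAG at 2 places and 19 CG pairs. Cox6a1 had GCGCNTGCG at 3 places, 2 of them overlapping on opposite strands, with the ETS letters once and 32 CG pairs. The windows of Cox6b2 and Cox6b1 held CCAAT at 3 places each, with CCGGAAG only in that of Cox6b1.

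Of the 95 members 76 were matched to a window. GCGCNTGCG was found in 23 of them (30.3%), against 14.1% of the windows of 10128 tested protein-coding genes and 6.31% of all 32851 windows. CCGGAAG was found in 17 (22.4%), against 18% and 8.86%. AAGATGGCG was found in 7 (9.21%), against 3.17% and 1.40%, and TCAAGGTCA in 2 (2.63%), against 0.247% and 0.423%. CAGCTG was found in 6 members (7.89%), against 15.0% and 16.3%, TATAAA in 7 (9.21%), against 7.23% and 13.6%, CTATTTTTA in 0, against 0.326% and 0.493%, and CCAAT in 34 (44.7%), against 38.7% and 37.4%. Members were therefore richer than other windows in the letters of NRF1 and YY1 and poorer in this E-box, which is a description of these letters and not of binding.

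From day 0 to day 2 the chain's transcripts were mostly lower in FPKM in all genotypes, while Cox8b, Cox6a2, Cox6b2 and Ndufaf3 were higher. A member was called when its Benjamini-Hochberg adjusted p (limma, over all 14932 tested genes) was at most 0.05 and its change was 0.58 or more on the log2 scale, up or down. By that rule 31 of 92 members were lower in WT (33.7%, against 19.7% of all tested genes), 24 in Per1-/- (26.1%, against 18.8%) and 13 in libraries labelled Per2-/- (14.1%, against 16.8%). Members were called higher in 4, 4 and 3 cases, against 20.8%, 20.8% and 18.7% of all tested genes. By share of calls, the libraries labelled Per2-/- were thus near the background. Without the minimum fold, 71, 71 and 53 members were lower, against 30.9%, 30.8% and 28.4% of tested genes, and 4, 5 and 4 were higher, against 29.3%, 29.3% and 27.2%.

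Most falls were small and widespread. The median log2 fold change of the members was -0.46 in WT, -0.43 in Per1-/- and -0.32 in libraries labelled Per2-/-, beside -0.01 over all tested genes in each. In 77 members it was negative in all 3 genotypes and in 10 positive in all 3. For 51 members (55.4%) every day 2 library lay below every day 0 library, as for 21.5% of all tested genes. Only 3 members (3.26%) had every day 2 library above every day 0 library, as had 19.7% of all tested genes. The 13 members called lower in all 3 genotypes were Cox5a, Cox6a1, Cox6b1, Cox7b, Uqcrc1, Uqcrq, Uqcr10, Uqcr11, Atp5b, Atp5d, Atp5g1, Atp5g3 and Ndufb6. Signs and calls shared by all 3 genotypes were not counted over all tested genes, so those counts show no trait of the members. With single libraries left out, Cox6a1, Uqcrc1, Uqcr10, Atp5g3 and Ndufb6 came under the minimum fold in some genotype, at values of -0.51 to -0.58 and adjusted p of at most 0.0021 (limma).

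How far down the members went depended on the scaling. The deposited FPKM summed to 333295 to 374624 in the day 0 libraries and to 261289 to 289211 on day 2. Their factor per library did not follow the assigned fragments alone. A fragment stood for 52.6 (FPKM times length) in a WT day 0 library of 21906593 fragments. It stood for 42.9 in a Per1-/- day 2 library of 21480812. Rescaled to a common total of 1000000 (TPM), the median of all tested genes shifted to 0.42 in WT, 0.38 in Per1-/- and 0.32 in libraries labelled Per2-/-, and that of the members to -0.03, -0.04 and 0.01. In TPM 3, 2 and 0 members were called lower and 7, 7 and 6 higher. Of all 14932 tested genes 1252, 1186 and 1267 were called lower in TPM and 5621, 5365 and 4655 higher. Of the 92 members 79, 82 and 79 lay below the median gene of their comparison in FPKM, and 79, 81 and 79 did so in TPM. As TPM moves all genes of a library by nearly the same amount, this likeness was fixed in advance and adds no support. As a share of all FPKM in a library, the members took 1.39 to 1.52% on day 0 (median 1.45%), 1.31 to 1.43% on day 2 (median 1.34%) and 1.07 to 1.41% on day 4. Of the assigned fragments, which carry no such factor, they took 0.756 to 0.850% on day 0 (median 0.790%). On day 2 that share was 0.642 to 0.735% (median 0.689%), and on day 4 0.644 to 0.722%.

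**Figure D1:**
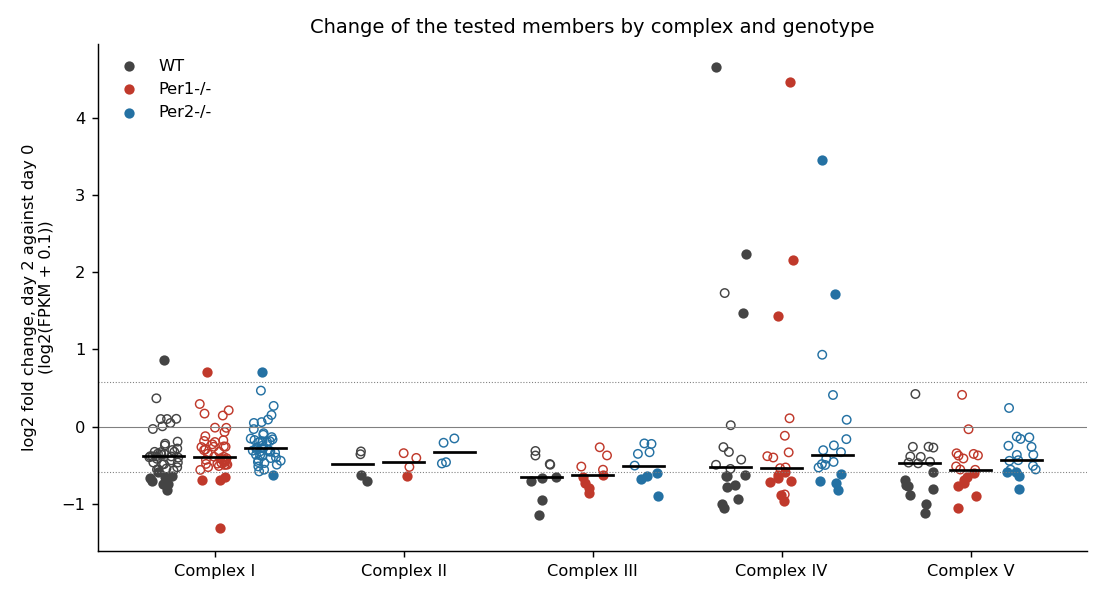
Log2 fold change from day 0 to day 2 of each tested member, on the log2(FPKM + 0.1) scale, by complex and genotype. Filled points were called, open points were not, black bars are medians and dotted lines mark ±0.58. Most points lie below 0, and the members far above it are complex IV isoforms. In TPM the medians lie near 0 (-0.03, -0.04 and 0.01 over all members).

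Complexes III, IV and V had the lowest ratios of day 2 to day 0. The summed FPKM of the 9 complex III members was 655 ± 69.4 (SD, n = 3) in WT on day 0 and 420 ± 11.9 on day 2. For complex IV the sums were 1719 ± 136 and 1125 ± 16.8, and for complex V 1358 ± 60.4 and 894 ± 29.7. Complex I went from 1364 ± 89.6 to 1048 ± 21.2 and complex II from 212 ± 10.3 to 148 ± 5.45. In none of the 5 sums did the WT libraries of the 2 days overlap, and the same held in Per1-/- and in the libraries labelled Per2-/-. As log2 ratios of the day 2 and day 0 means over 9 libraries each, the 5 sums changed by -0.32 (I), -0.45 (II), -0.58 (III), -0.53 (IV) and -0.55 (V). In TPM the ratio was 0.07 for complex I, opposite in sign, and -0.06, -0.19, -0.14 and -0.16 for the others.

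**Figure D2:**
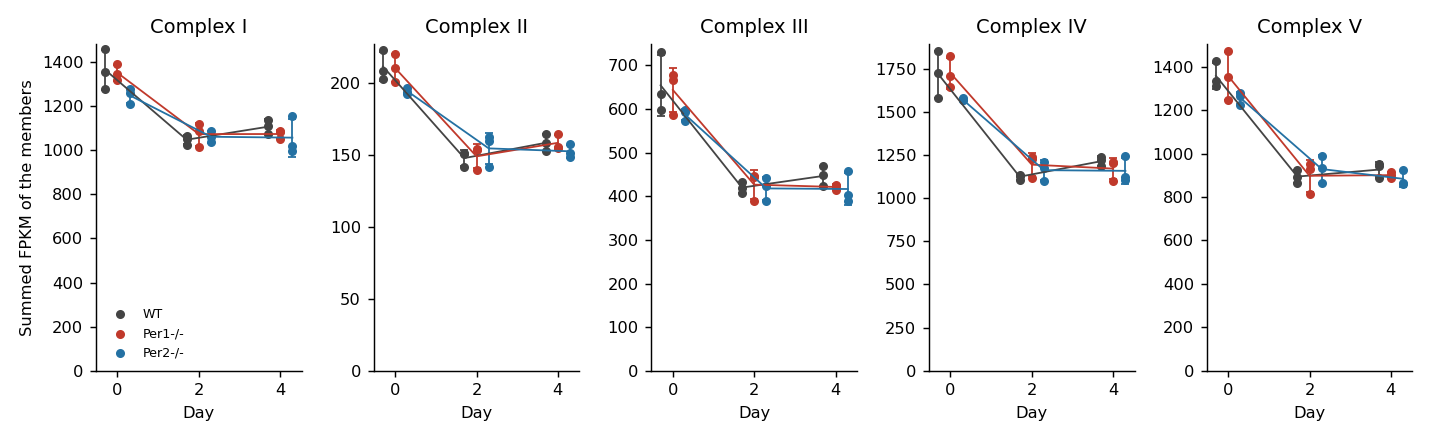
Summed FPKM of all members of each complex (y axis from 0) against day, with 1 point per library and the mean ± SD of 3 libraries per genotype. All sums of day 2 lie below those of day 0, and days 2 and 4 overlap. The FPKM total of the libraries was also lower on day 2, and in TPM the sum of complex I was not lower.

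In complex III, Uqcrq, a small subunit beside cytochrome b, had the largest mean fall. Its gene lies at chr11:53427922-53430831 (GRCm38, minus strand). It had 75.4, 67.2 and 62.8 FPKM in WT on day 0 and 30.4, 30.5 and 32.0 on day 2. In Per1-/- it went from 62.2, 62.6 and 68.4 to 30.9, 37.2 and 38.7, and in libraries labelled Per2-/- from 58.1, 60.4 and 55.0 to 34.8, 28.0 and 30.3. Every day 2 library was thus below every day 0 library. The log2 fold changes were -1.14, -0.86 and -0.90 (limma, adjusted p 3.6e-09, 1.9e-07 and 1.1e-07), and in TPM -0.71, -0.46 and -0.57.

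The other complex III members moved the same way. Uqcr11 fell by 0.94, 0.80 and 0.67 and Uqcrc1, a core protein of the matrix side, by 0.70, 0.73 and 0.59 on the log2 scale in WT, Per1-/- and libraries labelled Per2-/-. Uqcr10, the member of complex III with the highest level, had 108 to 143 FPKM on day 0 and 67.2 to 89.2 on day 2. Cyc1, cytochrome c1, which hands electrons to cytochrome c, had 46.5 to 66.1 FPKM on day 0 (median 54.8) and 33.1 to 40.1 on day 2 (median 38.2). Its change was called in WT (-0.66, adjusted p 1.0e-05, limma) and fell short of the minimum fold in Per1-/- (-0.56) and libraries labelled Per2-/- (-0.50). Without the first WT library of day 0 the WT value was -0.57, and without the first Per1-/- library of day 0 or the second of day 2 the Per1-/- values were -0.68 and -0.60. Uqcr10 was -0.55 in WT without the first library of day 0, -0.52 in Per1-/- without the first of day 2, and -0.56 and -0.58 in libraries labelled Per2-/- without the third of day 0 or the second of day 2. Uqcrc1 in libraries labelled Per2-/- was -0.54 and -0.51 without the first of day 0 or the second of day 2.

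Complex V was led by Atp5b, the catalytic beta subunit of the F1 head and its most abundant member (chr10:128083273-128090391, plus strand). WT libraries held 340, 297 and 331 FPKM on day 0 and 171, 153 and 160 on day 2. Per1-/- libraries went from 286, 365 and 327 to 140, 167 and 164, and those labelled Per2-/- from 309, 295 and 290 to 186, 153 and 177. The groups did not overlap, and on day 4 all 9 libraries still lay between 147 and 164. The log2 fold changes were -1.0, -1.05 and -0.80 (limma, adjusted p 8.2e-09, 5.1e-09 and 2.1e-07), and in TPM -0.56, -0.66 and -0.47.

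Atp5a1, the alpha subunit of the same head, had 218 to 276 FPKM on day 0 and 174 to 224 on day 2, which overlap, with changes of -0.26, -0.35 and -0.16. The medians of Atp5a1 and Atp5b were 233 and 309 FPKM on day 0 and 198 and 164 on day 2. The alpha and beta subunits stand in equal number in the enzyme, but RNA levels of different genes do not show the balance of their proteins. The change of Atp5a1 stayed under the minimum fold in every genotype, and the difference between both genes' changes was not tested.

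Of the other complex V members, Atp5g3 and Atp5g1 encode the same c-ring protein with different targeting peptides. Atp5g3 fell by 0.89, 0.73 and 0.59 and Atp5g1 by 0.77, 0.76 and 0.64 on the log2 scale, while Atp5g2, the other such gene, changed by -0.39, -0.37 and -0.25 and was not called. Atp5g3 in libraries labelled Per2-/- was -0.52 to -0.58 without the second or the third library of day 0 or of day 2. Atp5k, subunit e at the dimer contact, was called in WT (-1.11) and Per1-/- (-0.90) and had -0.55 with adjusted p 0.086 (limma) in libraries labelled Per2-/-, where 1 day 0 library lay at 20.6 FPKM and the others at 30.6 and 42. Without that library its change there was -0.82 with adjusted p 0.018. Atp5s, a coupling factor rather than a subunit, was the complex V member with a positive change in all 3 genotypes (0.42, 0.41 and 0.24, not called); in TPM it was called in WT and Per1-/-.

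Among the 11 widely expressed complex IV subunits, 8, 7 and 4 were called lower, and 11, 11 and 10 passed the adjusted p alone. Cox5a, which binds the matrix face of the catalytic core, lies at chr9:57521274-57532426 (plus strand). Its day 0 libraries spanned 33.5 to 45.1 FPKM (median 40.3) and those of day 2 17.3 to 23.5 (median 21.5). Its log2 fold changes were -1.0, -0.96 and -0.82. Cox7b fell by 1.06, 0.89 and 0.72. Cox5b fell by 0.94 and 0.71 in WT and Per1-/- and had -0.53 in libraries labelled Per2-/-, which was -0.64 and called without the first of day 0; without the first Per1-/- library of day 2 the Per1-/- value was -0.55. Cox8a, the most abundant member of the complex, had 319 to 394 FPKM on day 0 and 207 to 263 on day 2. Cox6a1 went from 293 to 366 down to 185 to 221, Cox6b1 from 161 to 195 down to 98.1 to 118, Cox4i1 from 186 to 235 down to 135 to 149, and Cox7a2 from 73.9 to 101 down to 50.5 to 63.1. Ndufa4 had 80.9 to 113 FPKM and then 61.4 to 71.6. Among the subunits with values given here, only Cox5b had libraries of both days that overlapped, with a lowest day 0 value of 37.9 and a highest day 2 value of 39.2 FPKM.

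Complex II is the only complex with no mitochondrially encoded subunit. Sdhd, a membrane anchor, had 62.7 to 88.1 FPKM on day 0 and 45.0 to 52.1 on day 2 and was called in WT (-0.70) and Per1-/- (-0.63, and -0.56 without the second library of day 0). Sdhb, the iron-sulfur subunit, had 35.5 to 45.9 and then 26 to 33.6 and was called in WT (-0.62) and, without the first Per1-/- library of day 0, also in Per1-/- (-0.62). Sdha, the flavoprotein, had 53.2 to 62.9 and then 42.5 to 50.8, and Sdhc, the other anchor, 29.8 to 34.1 and then 23.5 to 28.7. Neither Sdha (-0.32, -0.40 and -0.15) nor Sdhc (-0.36, -0.34 and -0.21) reached the minimum fold.

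Complex I had the smallest median change of the 5. None of its 7 nuclear core subunits, which carry the flavin and iron-sulfur clusters, reached the minimum fold, though 7, 7 and 3 passed the adjusted p; their median changes were -0.32, -0.32 and -0.19. Of the 29 accessory subunits 7, 3 and 1 were called lower. Ndufb6, of the membrane arm, was called in all genotypes, from 47.0 to 60.6 FPKM on day 0 to 29.1 to 41.4 on day 2; without the third library of day 2 it was -0.52 in WT and -0.57 in libraries labelled Per2-/-. Ndufa2, the most abundant complex I member, had 60.2 to 105 and then 58.6 to 75.6 FPKM and was not called. Ndufa12 varied widely within days: WT went from 14.5, 13.1 and 11.3 to 7.73, 6.12 and 8.20, Per1-/- from 24.6, 15.0 and 23.4 to 6.64, 9.40 and 8.91, and libraries labelled Per2-/- from 9.16, 10.2 and 12.5 to 13.6, 6.54 and 7.03. It was called lower in WT (-0.81) and Per1-/- (-1.31) but not in the last group (-0.30), where the days overlapped. The WT call was lost without the first library of day 0 (-0.73, adjusted p 0.063, limma) or the second of day 2 (-0.69, 0.074). Ndufa6 had a positive change in all 3 genotypes (0.10, 0.29 and 0.47) without reaching the minimum fold in FPKM, and in TPM it was called higher in Per1-/- and libraries labelled Per2-/-.

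A pair of assembly factors that are known to work together moved in opposite directions. Ndufaf3 (chr9:108565537-108567434, minus strand) went from 3.94, 5.25 and 3.16 FPKM to 7.59, 7.40 and 7.17 in WT, from 4.39, 4.33 and 5.56 to 7.80, 7.19 and 8.51 in Per1-/-, and from 4.85, 4.44 and 5.70 to 7.54, 9.13 and 8.04 in libraries labelled Per2-/-. Every day 2 library was above every day 0 library. Its log2 fold changes were 0.86, 0.71 and 0.71 (limma, adjusted p 0.00015, 0.00093 and 0.0010). Ndufaf4 had 4.62 to 8.40 FPKM on day 0 and 3.57 to 4.64 on day 2 and was called lower in WT (-0.74) and Per1-/- (-0.65), with -0.58, just short of the minimum fold, in libraries labelled Per2-/-, where leaving out the second or the third library of day 0 or the third of day 2 gave -0.59 to -0.61; without the second Per1-/- library of day 0 the Per1-/- value was -0.44 and no longer called. The span of Ndufaf3 overlaps that of Impdh2 on the other strand, and the libraries carried no strand information.

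The members that rose most were isoforms named for other tissues. Cox8b, the heart and skeletal muscle form of subunit VIII (chr7:140898945-140900446, minus strand), whose window with CAGCTG and TATAAA is shown above, was listed at 0 in all 3 WT libraries of day 0 and had 1.5, 2.41 and 3.86 FPKM on day 2. Per1-/- went from 0.431, 0.180 and 0 to 9.29, 5.0 and 3.21, and libraries labelled Per2-/- from 0, 0.147 and 0.323 to 1.82, 3.56 and 1.84. On day 4 the 9 libraries held 1.57 to 15.3 FPKM. In fragments, WT had 0 on day 0 and 56 on day 2, at least 17.8-fold higher against a floor of 3 fragments over the group. The ratio was 26.9 in Per1-/- (95% exact interval 10.3 to 100.05, from 4 and 136 fragments) and 15.5 in libraries labelled Per2-/- (5.01 to 77.6, from 3 and 51 fragments), intervals that cover counting error only. It was called in all 3 genotypes (limma, adjusted p 4.3e-06, 7.9e-06 and 0.00016).

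Cox6a2, the heart and skeletal muscle form of subunit VIa, behaved alike at a low level. It had 0.309, 0.0711 and 0.367 FPKM in WT on day 0 and 1.70, 1.02 and 1.59 on day 2. Per1-/- went from 0.304, 0.286 and 0.199 to 1.83, 1.66 and 1.11, and libraries labelled Per2-/- from 0.334, 1.09 and 0.512 to 0.966, 1.96 and 0.901, where the days overlapped. It was called in WT (2.24, adjusted p 0.00011, limma) and Per1-/- (2.15, 0.00017), and had 0.93 with adjusted p 0.066 in the last group. In that group the rise was called in TPM (1.34, adjusted p 0.023), with the replicate number as a block (0.93, 0.012) and without the day 0 library at 1.09 (1.33, 0.015; limma). Its span overlaps that of Itgad on the other strand, and 51 to 66 fragments per group stood behind the day 2 values.

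Cox6b2, the testis form of subunit VIb (chr7:4751792-4753094, minus strand), rose by 2.77-, 2.70- and 3.27-fold from a higher start. WT went from 4.98, 6.24 and 3.69 FPKM to 12.4, 12.2 and 17.0, Per1-/- from 6.76, 4.39 and 6.30 to 15.8, 16.1 and 15.0, and libraries labelled Per2-/- from 5.18, 5.36 and 4.40 to 16.2, 18.7 and 14.8. No day 2 library came near a day 0 library. The log2 fold changes were 1.47, 1.43 and 1.71 (limma, adjusted p 1.2e-05, 1.7e-05 and 2.2e-06). All 4 rises, of Cox8b, Cox6a2, Cox6b2 and Ndufaf3, had the same sign in TPM, where the changes of all genes are moved up.

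The restricted isoforms stayed a small part of their pairs. Cox8b made up 0.0356 ± 0.0485% (SD, n = 9) of the summed FPKM of Cox8a and Cox8b on day 0, 1.51 ± 1.06% on day 2 and 2.21 ± 1.70% on day 4. Cox6a2 went from 0.120 ± 0.0952% to 0.695 ± 0.232% and 1.02 ± 0.338% of its pair with Cox6a1. Cox6b2 went from 2.89 ± 0.543% to 12.4 ± 1.90% and 9.25 ± 1.90% of its pair with Cox6b1. Cox4i2, a form known from lung and low oxygen, kept to 0.616, 0.588 and 0.788%, and Cox7a1, another muscle form, to 1.56, 2.05 and 1.87%. Neither Cox4i2 (0.389 to 1.90 FPKM on days 0 and 2) nor Cox7a1 (0.595 to 2.22) was called, though Cox4i2 in Per1-/- (-0.88) was -1.25 with adjusted p 0.026 without the second library of day 0 and -1.16 with 0.042 without the third of day 2 (limma). Cox8c reached 0.106 FPKM in a single library, and Cox7b2 at most 0.905.

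**Figure D3:**
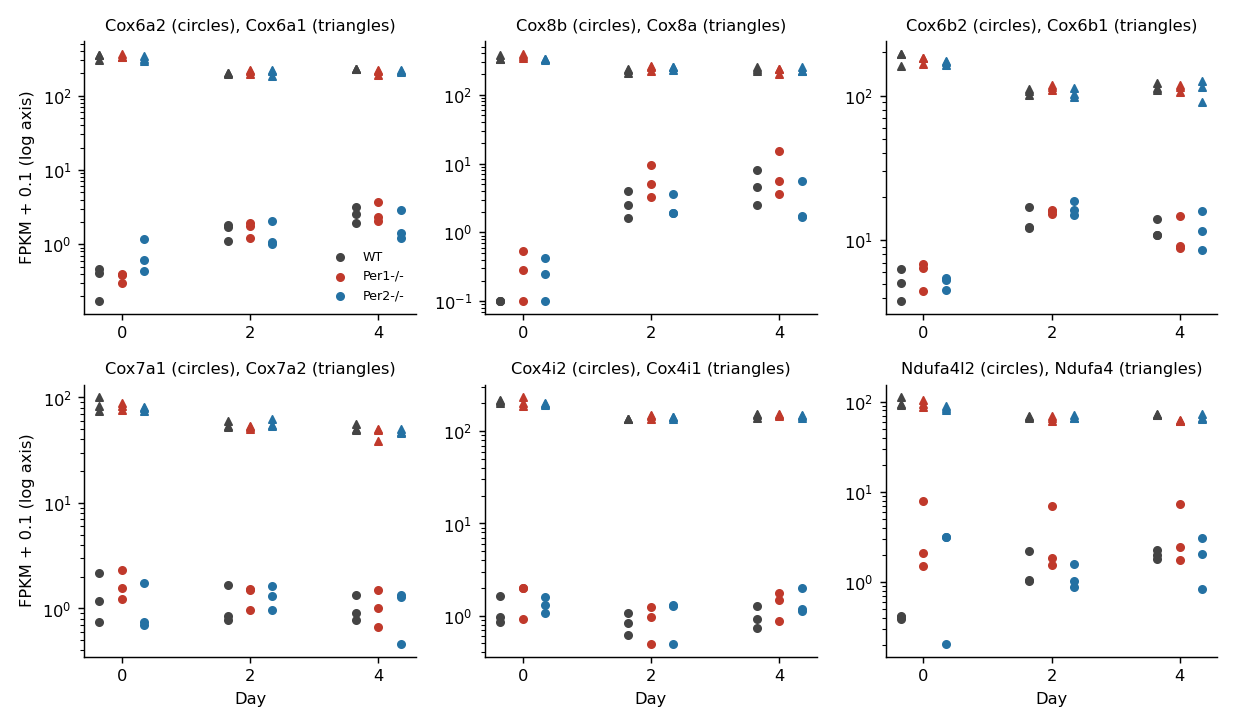
FPKM + 0.1 (log axis) of 6 restricted isoforms (circles) and their widely expressed partners (triangles) by day, with 1 point per library and colours for genotypes. Cox8b, Cox6a2 and Cox6b2 are higher on day 2 than on day 0 while their partners are lower in FPKM. Ndufa4l2 spreads widely within genotypes, from 0.104 to 7.88 FPKM on day 0.

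Ndufa4l2, a low-oxygen form related to Ndufa4, spread widely between libraries of a group. WT went from 0.288, 0.309 and 0.319 FPKM to 2.12, 0.951 and 0.940. In Per1-/- the library numbered 1 was highest on each day, with 7.88, 6.93 and 7.19 FPKM, while the others lay between 1.42 and 2.37. In libraries labelled Per2-/- the library numbered 1 was lowest on each day, with 0.104, 0.784 and 0.738 FPKM. The rise in WT (1.73, adjusted p 0.081, limma) was not called. It was called in TPM (2.32, adjusted p 0.033), with the replicate number as a block (1.73, 0.0055) and without the 3 Per1-/- libraries numbered 1 (1.73, 0.046; limma).

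Values of muscle genes stand beside those of Cox8b and Cox6a2, since both are muscle forms. Of 27 striated muscle markers 17 were tested, and 9, 4 and 4 were called higher and 2, 3 and 2 lower. Troponins rose, with Tnnt2 at 5.09, 4.54 and 3.97 and Tnnt1 at 3.10, 1.66 and 2.12 on the log2 scale, while Acta1 (-4.72, -3.80 and -4.66) and Des (-2.33, -2.08 and -2.21) fell. The summed level of the list was 94.3 to 422 FPKM on day 0, 51.5 to 87.8 on day 2 and 65.3 to 123 on day 4. Between 0 and 4 of the 27 genes were at 0 in all libraries of a group. Of 14 neuron markers 13 were tested, and 9, 9 and 9 were called higher and 1, 0 and 1 lower; their sum was 29.0 to 50.9 FPKM on day 0 and 112 to 156 on day 2. Of 12 fibroblast markers 4, 4 and 3 were higher and 4, 4 and 5 lower. Their part in the changes of the members was not tested.

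Over the 9 group means, the genes most like Cox8b by Pearson's r were Efna3, Vstm4, Nxpe4, Plcl2 and AW551984 (0.993 to 0.995), and those most like Cox6a2 were Otor, Chadl, Fgfr4, Chrdl1 and Rxra (0.989 to 0.992). As 2556 and 2005 tested genes passed 0.9, this describes the course over days that many genes shared. For Cox7a1 and Ndufa4l2 3 genes each passed 0.9, and for Cox4i2 9 did. Eif2b4 (0.93) was nearest to Cox7a1, Sept2 (0.93) to Cox4i2 and Slc16a6 (0.91) to Ndufa4l2.

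From day 2 to day 4 no member was called in WT, Per1-/- or libraries labelled Per2-/- (limma), where 3.21%, 2.44% and 4.06% of all tested genes were. At an unadjusted p under 0.05 there were 6, 8 and 6 members. A count-based fit (voom on recovered fragments, with the library scale factors of the FPKM) also called 0. The 95% interval of the change lay within ±0.58 for 80, 79 and 80 of the 92. The smallest adjusted p was that of Ndufa1 in WT (0.41 on the log2 scale, adjusted p 0.10, limma) and that of Ndufa10 in Per1-/- (-0.24, 0.15). For 42 members all day 4 libraries lay below all day 0 libraries in FPKM, and for 4 above them. The same was not counted over all tested genes, so these counts have no background beside them and show no trait of the members.

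The study set the 3 genotypes side by side on each day to learn how the period genes bear on reprogramming. No member was called between genotypes on any day (limma). In Per1-/- against WT the share of all tested genes called was 0.0134% on day 0, 0.0067% on day 2 and 0.0268% on day 4. In Per1-/- against libraries labelled Per2-/- it was 0.0201%, 0.0737% and 0.556%, and in the latter against WT 0.0067%, 0.0268% and 0.0067%. Few genes of any kind were called at this spread. The study, using DESeq2 at the same thresholds, reported far more genes that set Per1-/- apart on day 2 and day 4. At an unadjusted p under 0.05 there were 2, 0 and 7 members for Per1-/- against WT, 10, 3 and 6 for Per1-/- against libraries labelled Per2-/-, and 17, 0 and 1 for the latter against WT; voom called 0 in each. The intervals lay within ±0.58 for 77 to 84 of the 92 members, and for the others a difference of that size lay inside the interval.

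**Figure D4:**
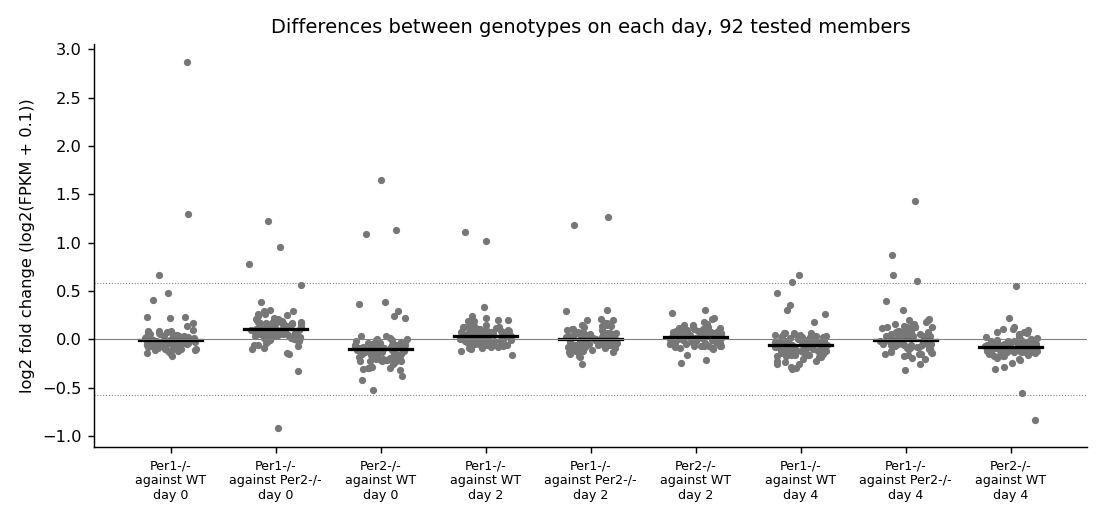
Log2 differences between genotypes of the 92 tested members in each of 9 comparisons, with medians as black bars and ±0.58 as dotted lines. The points gather around 0, the medians lie between -0.10 and 0.10, and none was called; the points farthest above 0 are those of Ndufa4l2 and Cox8b, both low in level.

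On day 0 the sums in libraries labelled Per2-/- were the lowest, with 4859 ± 81.5 FPKM (SD, n = 3) over all members, beside 5307 ± 353 in WT and 5287 ± 252 in Per1-/-. The libraries did not overlap with those of either other genotype, since the highest of them was 4910 and the lowest of WT 4994. In the fit their members' median difference from WT was -0.10, with 80 of 92 below 0, and in TPM it was 0.01 with 44 below 0. On day 2 the sums were 3634 ± 57.7 in WT, 3741 ± 230 in Per1-/- and 3725 ± 183 in libraries labelled Per2-/-, and they overlapped. On day 4 they were 3852 ± 122, 3726 ± 46.5 and 3669 ± 241.

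The largest genotype differences among members were those of Ndufa4l2 and Cox8b. Ndufa4l2 on day 0 was higher in Per1-/- than in WT by 2.87 on the log2 scale (standard error 0.84, adjusted p 0.77, limma), without overlap between 3 and 3 libraries. Cox8b on day 4 was higher in Per1-/- than in libraries labelled Per2-/- by 1.43 (adjusted p 0.35), with overlap. The smallest adjusted p was that of Cox7a2l, a factor in supercomplex assembly, on day 4. Its FPKM were 126, 131 and 129 in Per1-/-, 116, 113 and 110 in WT, and 106, 107 and 100 in libraries labelled Per2-/-. The 3 groups did not overlap, and the difference of 0.30 between Per1-/- and libraries labelled Per2-/- had adjusted p 0.019, under the minimum fold. From day 0 to day 2 Cox7a2l went from 102 to 121 FPKM to 112 to 123, with changes of 0.02, 0.11 and 0.09 in FPKM and 0.45, 0.50 and 0.42 in TPM, none of which was called.

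The change over days was not shown to differ between genotypes. For day 0 to 2, no member was called in Per1-/- against WT or in libraries labelled Per2-/- against WT, nor for day 2 to 4 in either (limma, 4 interaction contrasts; 0%, 0%, 0% and 0.0067% of all tested genes called in the order Per1-/- then labelled Per2-/-, the earlier interval first). At an unadjusted p under 0.05 there were 0 and 6 members for day 0 to 2, and 3 and 1 for day 2 to 4, and voom called 0. The median difference for labelled Per2-/- against WT from day 0 to 2 was 0.15, with 79 of 92 above 0, and in TPM 0.04 with 59 above 0. So the lower number of calls in libraries labelled Per2-/- is a count at a threshold and not a tested difference, and 66 of the 92 intervals lay within ±0.58.

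Macrophage markers are given beside these comparisons, and their part in the members' values was not tested. The summed level of 13 markers was 116 to 211 FPKM in WT, 102 to 595 in Per1-/- and 61.7 to 292 in libraries labelled Per2-/- on day 0, where the genotypes overlapped. It was 212 to 308, 419 to 706 and 121 to 209 on day 2, and 456 to 598, 812 to 1275 and 331 to 427 on day 4, and the genotypes did not overlap on either of these days. Between genotypes 0 of the 13 were called in any of the 9 comparisons (limma). The study, using DESeq2 at the same thresholds, reported macrophage genes higher in Per1-/- than in both other genotypes on days 2 and 4. The 0 calls here therefore do not show that the difference is absent. At an unadjusted p under 0.05 there were 13 and 12 for Per1-/- against libraries labelled Per2-/- on days 2 and 4, 3 and 3 for Per1-/- against WT, and 0 in the other 5. From day 0 to day 2, 4, 9 and 0 of them were called higher and 0 lower (limma), and in libraries labelled Per2-/- 0 had an unadjusted p under 0.05.

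Around the members, the other parts of the pathway were read from lists. All 13 mitochondrially encoded subunits were tested, and their medians were -0.10, -0.05 and -0.17. Lower were 2, 1 and 1, with mt-Nd1, a core subunit of complex I, lower in all genotypes (-0.79, -0.72 and -0.59), and mt-Co3 was higher in Per1-/- (0.65). Poly(A) selection reads these RNAs unevenly. Of 13 TCA cycle enzymes 7, 7 and 6 were lower, all 13 values were below 0 in each genotype, and the medians were -0.62, -0.66 and -0.57. Idh3a, Mdh2 and Cs, the cycle's citrate synthase, led with -1.14, -1.04 and -0.80 in WT.

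Of 17 tested electron carriers and other routes to coenzyme Q 4, 4 and 3 were lower and 1 was higher in each genotype, with medians of -0.26, -0.24 and -0.22. Cycs, cytochrome c itself, changed by -1.30, -1.18 and -1.01, Gpd2, the glycerol phosphate shuttle enzyme, by -1.19, -1.17 and -1.23, and Pdss1, of the coenzyme Q tail, by -1.08, -1.05 and -1.0. Coq8a, a kinase-like protein of coenzyme Q synthesis, rose by 2.70, 2.58 and 2.19. Of 8 tested genes of ATP and phosphate exchange 5, 6 and 3 were lower, among them the ADP/ATP carrier Slc25a5 (-1.29, -1.30 and -1.21) and the phosphate carrier Slc25a3 (-1.02, -1.01 and -0.97), and Ucp2, an uncoupling-family carrier, was higher (1.84, 1.59 and 0.96). The medians of that list were -0.67, -0.72 and -0.53. Of 37 assembly factors outside the naming rule 8, 7 and 5 were lower and 1, 1 and 0 higher, with medians of -0.25, -0.18 and -0.13, with Higd1a at -1.39, -1.31 and -0.97 and Tmem70, for complex V, at -0.99, -1.05 and -0.90.

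Glycolysis genes had lower medians than the members. Of 17 genes 13, 11 and 13 were lower and 2, 2 and 2 higher, with medians of -1.23, -1.26 and -1.21. Hk2 (-2.59, -2.39 and -2.34) and Ldha (-1.94, -2.05 and -1.75) were lower, and Ldhb (0.86, 0.83 and 1.01) and Pfkm (0.92, 0.82 and 0.95), forms common in oxidative tissue and muscle, were higher. Of 12 HIF target genes 3, 4 and 3 were lower and 0, 0 and 1 higher, with medians of -0.45, -0.42 and -0.28, and with the glucose transporter Slc2a1 at -2.38, -2.61 and -2.15. Ribosomal protein genes had medians near those of the members: -0.66, -0.62 and -0.48 for 78 cytosolic ones (54, 45 and 19 lower) and -0.51, -0.53 and -0.36 for 77 mitochondrial ones (32, 23 and 12 lower). The lists were not tested against each other. In TPM the list medians move up with that of all genes (to 0.42, 0.38 and 0.32 from -0.01), so that those nearer to 0 than this shift turn positive.

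**Figure D5:**
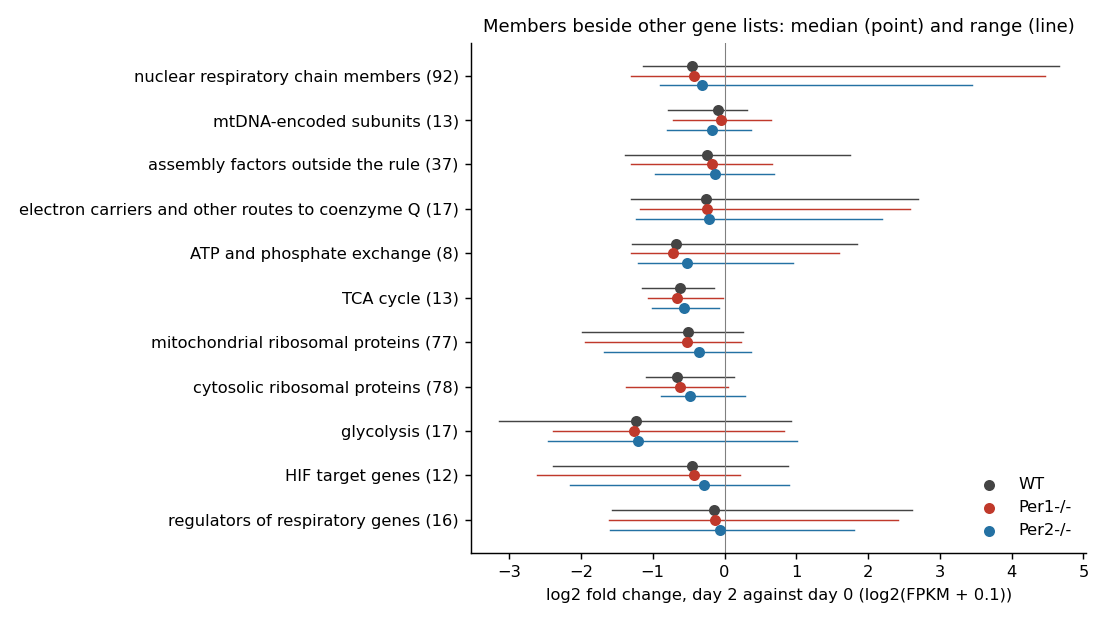
Median (point) and range (line) of log2 fold changes from day 0 to day 2, on the log2(FPKM + 0.1) scale, for the members and 10 other lists, with the number of tested genes in brackets. The members' medians (-0.46, -0.43 and -0.32) lie beside those of ribosomal protein genes and above that of glycolysis. In TPM the median of all genes lies at 0.42, 0.38 and 0.32 instead of -0.01.

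Among 16 tested regulators of respiratory genes 3, 2 and 2 were higher and 3 were lower in each genotype, with medians of -0.15, -0.14 and -0.06. Ppargc1a, the coactivator PGC-1 alpha, had 0.0638 to 0.441 FPKM on day 0 and 0.910 to 1.39 on day 2, without overlap, and was called in all genotypes (2.61, 2.41 and 1.67; limma, adjusted p 1e-07, 3.3e-07 and 3.6e-05). Esrrg, an estrogen-related receptor, was also higher (1.32, 1.99 and 1.8), and in WT alone Tfb1m, a mitochondrial transcription factor (0.71), passed. Myc (-1.57, -1.61 and -1.60) and Pprc1, a growth-related relative of Ppargc1a (-0.87, -0.89 and -0.98), were lower, as was Ppard (-0.73, -0.81 and -0.60). The DNA-binding regulators changed little: Nrf1 by -0.13, -0.09 and -0.05, Gabpa by 0.09, -0.10 and -0.02, and Tfam, the packaging and transcription factor of mitochondrial DNA, by 0.03, -0.23 and -0.19. Esrra had -0.36 in WT (adjusted p 0.028, under the minimum fold), -0.02 in Per1-/- and -0.07 in libraries labelled Per2-/-. Ppargc1b, with 0.0633 to 0.943 FPKM over both days, was under the level filter and not tested. Ppargc1a and most members thus had changes of opposite sign from day 0 to day 2 in FPKM. In FPKM 79, 82 and 79 members were below 0, but in TPM only 49, 53 and 43 were.

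Across the members called lower in at least 2 genotypes that had a window, GCGCNTGCG was found in 9 of 21 and CCGGAAG in 7 of 21, against 14 and 10 of the 54 other tested members. TCAAGGTCA was found in 2 of 21 and 0 of 54, AAGATGGCG in 1 and 6, and TATAAA in 0 and 6. The counts are small and were not tested.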

How the data were processed

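Poly(A) RNA of 27 libraries was sequenced in pairs, without strand information. The authors aligned reads to GRCm38 (mm10) with HISAT2 2.0.5, counted fragments per Ensembl gene with featureCounts 1.5.0-p3, and deposited FPKM. Multiplying FPKM by gene length returned whole fragments (tolerance 0.01) in every library, up to a scale factor per library.

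Groups came from the labels. limma 3.58.1 (R 4.3.3) was fitted to log2(FPKM + 0.1) of the 14932 genes whose mean reached 0.5 FPKM, in one model of all 9 groups with 18 residual degrees of freedom, with trended empirical Bayes moderation and Benjamini-Hochberg adjustment; no count test was the main result because the deposited unit is FPKM. The pseudocount understates changes of low genes. The step was checked on simulated data. Promoter letters are short forms of known motifs. Windows were matched by Ensembl gene identifier, and by gene symbol or synonym where that gave no match. Alternatives were 2 other pseudocounts, 2 other filters, TPM and limma voom on fragments, which kept the library scale factors of the FPKM. Further ones were fits of only the groups compared, no minimum fold, a replicate block and leaving out each library.

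Members and lists were chosen with earlier results of these data known. Named are isoform pairs, complex II, Cyc1, members under the filter, the most abundant member and up to 3 largest rises and falls per complex. At most 4 called genes are named per list, but all called ones among the regulators. Ppargc1a, Ppargc1b, Nrf1, Gabpa, Esrra and Tfam are named whatever they did. Atp5a1, Atp5g1, Atp5g2, Atp5s, Ndufa6, Ndufa1 and Ndufa10 were named after their values were seen. Some items are not reported here. Of the members 40 share part of their span with another annotated gene, 32 of them with one on the other strand.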

Additional observations from a re-analysis of the deposited data

How the results depend on the processing

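Rescaling to TPM moved every count of members called between day 0 and day 2: 3 lower and 7 higher in WT, 2 and 7 in Per1-/-, and 0 and 6 in libraries labelled Per2-/-. Over all 14932 tested genes the TPM counts were 1252 lower and 5621 higher, 1186 and 5365, and 1267 and 4655. The log2 ratio of day 2 to day 0 sums became -0.0894 for all members, 0.0708 for complex I (opposite in sign), -0.0613 for II, -0.188 for III, -0.139 for IV and -0.158 for V. Without a minimum fold, 71, 71 and 53 members were lower, and 1 (Cox7a2l) differed between Per1-/- and libraries labelled Per2-/- on day 4. As shares of fragments, Cox6b2 held 4.45%, 18.1% and 13.7% of its pair on days 0, 2 and 4, Cox4i2 0.314%, 0.300% and 0.403%, Cox7a1 0.891%, 1.17% and 1.07%, and Cox8b 0.0235%, 1.01% and 1.48%. With each library left out in turn, 24 to 38 members were lower and 4 to 5 higher in WT, 20 to 35 and 4 in Per1-/-, and 9 to 16 and 3 to 4 in libraries labelled Per2-/-; the other comparisons stayed at 0. The ratios then ran from -0.491 to -0.458 for all members, -0.332 to -0.298 (I), -0.463 to -0.434 (II), -0.592 to -0.546 (III), -0.539 to -0.507 (IV) and -0.562 to -0.525 (V). Other pseudocounts, filters, voom and fits of only the groups compared kept every count within 1.5 times. As voom was run with the library scale factors of the deposited FPKM, it could not test the scaling. Deviations of same-numbered libraries of a genotype on different days correlated over 0.1 in 14 of 27 pairs (-0.017 to 0.294, median 0.13), and those of differently numbered ones in 0 of 54 (median -0.06), a hint of pairing from the data, not the design. All 3 pairs passed in Per1-/- from day 0 to 2 and from day 2 to 4 and in WT from day 2 to 4, where the block changed no call. In the other comparisons they did not, and not every library correlated best with its own number, so the fit without the block was kept. With the replicate block 31 members were lower and 5 higher in WT, 24 and 4 in Per1-/-, and 13 and 4 in libraries labelled Per2-/-, with Ndufa4l2 (WT) and Cox6a2 (labelled Per2-/-) gained. The causes of these shifts were not tested, and low isoforms rest on few fragments.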
